A study of Mus musculus with 6 samples.

Results

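The 45 genes described here encode lysosomal proteins: the subunits of the vacuolar proton pump (V-ATPase), proteins of the lysosomal membrane, and hydrolases other than the cathepsins with their activators. They were chosen by symbol from a fixed list, and all 45 were found among the 57180 genes of the table. RNA sequencing compared macrophages of white adipose tissue from wild-type (WT) mice in 3 libraries labelled HFD and 3 labelled HFD+MGIG. HFD is a high-fat diet, which both groups share, and MGIG is magnesium isoglycyrrhizinate, a salt of a glycyrrhizic acid isomer used as a liver-protecting drug. The series' text says that F4/80+CD11b+ cells were sorted, whereas the labels' protocol speaks of RNA from tissue. The labels give no age, sex, dose, time or batch, and do not say that the libraries came from separate mice, so the p-values below reflect variation among these libraries, part of which could be technical.

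Lysosomes break down material taken up by a cell or delivered by autophagy. The V-ATPase acidifies them: its V1 sector hydrolyses ATP in the cytosol and its V0 sector carries protons across the membrane, while heavily glycosylated membrane proteins line the organelle and acid hydrolases degrade lipids, glycans and proteins inside it. Macrophages of obese adipose tissue are known for lysosomes that take up and process lipid from adipocytes, and many lysosomal genes share an E-box motif that is bound by the factor TFEB and its relatives.

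That motif is shown first because it is what the promoters of these genes are known to share. RefSeq promoter windows (build GRCm38.p6, 250 bases before to 50 bases after the start) were matched by symbol for 38 of the 45 genes. The E-box CACGTG, which reads the same on both strands, was present in 12 of these 38 windows (31.6%), against 8.09% of all 27025 genes with a window. All 12 held it as TCACGTG or its complement CACGTGA, a form found in 4.29% of all genes. The longer palindrome TCACGTGA, which contains the E-box, was present in 6 of the 38 (15.8%) and in 1.12% of all genes. Its copies are printed on the gene's strand with 16 flanking bases on each side and the palindrome in capitals; Gla holds it at 2 places.
Atp6v0d1, chr8:105566045-105566084, minus strand: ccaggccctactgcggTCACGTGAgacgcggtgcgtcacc
Atp6v0e, chr17:26676382-26676421, plus strand: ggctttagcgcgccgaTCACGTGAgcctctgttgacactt
Atp6v1a, chr16:44139368-44139407, minus strand: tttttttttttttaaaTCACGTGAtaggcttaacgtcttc
Mcoln1, chr8:3500457-3500496, plus strand: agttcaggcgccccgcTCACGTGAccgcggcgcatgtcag
Cln3, chr7:126583335-126583374, minus strand: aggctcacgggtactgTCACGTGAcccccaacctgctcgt
Gla, chrX:134601177-134601216, minus strand: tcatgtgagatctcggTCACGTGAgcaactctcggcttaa
Gla, chrX:134601210-134601249, minus strand: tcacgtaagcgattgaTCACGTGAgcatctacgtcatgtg
The palindrome of Atp6v0d1 spans the start site, from 4 bases before it (position -4) to position 3, counting the first transcribed base as 0, and that of Atp6v0e lies at positions 2 to 9. In the other 4 genes it lies upstream, between position -228 (Gla) and position -39 (Mcoln1). These matches are a description of the letters in the windows, not of binding.

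The libraries differed in more than treatment. Total counts were 14437605 to 16740417 in HFD and 2214456 to 4904302 in HFD+MGIG. Genes of families that macrophages are not expected to express (olfactory, vomeronasal and taste receptors, keratin-associated proteins and defensins) took 0.0624% to 0.280% of counts in HFD and 2.93% to 6.42% in HFD+MGIG, with replicate 2 of HFD+MGIG the shallowest and the highest. For each gene a background bound was taken from these silent families, as the 90th percentile of their counts per kb times the gene's exon length. That percentile was 5.23, 9.41 and 4.58 CPM per kb in HFD+MGIG replicates 1 to 3, so replicate 2 raises the mean bound of the group. The 45 lysosomal genes together had 219126 to 259596 counts per HFD library and 55047, 11545 and 56013 in HFD+MGIG replicates 1 to 3. No member lay at or below its bound in any HFD library, whereas 4, 14 and 4 did in HFD+MGIG replicates 1 to 3. In bulk samples such as these, fewer cells of a type and less RNA per cell cannot be told apart.

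All 45 lysosomal genes had a fitted log2 fold change below 0 with MGIG when every filtered gene was scaled together. A second scale was set by genes whose level over all 6 libraries lay well above background. On it, 11 of 13 fitted pump subunits and 6 of 12 fitted hydrolases, activators and progranulin lay above 0. With the 90th percentile background subtracted, these counts were 8 of 13 and 9 of 12. In the fit over every filtered gene (edgeR's quasi-likelihood test over 23055 genes, Benjamini-Hochberg adjusted p under 0.05), 11 of the 45 fell and 0 rose, against 17.8% lower and 42.9% higher among all genes tested. Their log2 fold changes ran from -1.69 to -0.47 with a median of -0.86; the median of all genes was 0.38. At an unadjusted p under 0.05 the edgeR counts were 13 lower and 0 higher. The share of all genes at that limit is not given here, so these counts are not read against a general rate. With DESeq2 or limma voom 0 members were higher as well. The CPM of the groups did not overlap for 22 of the 45, each lower with MGIG, against 23.7% of all genes; for the other 23 the groups overlapped.

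A second fit was limited to 2604 protein-coding genes with a mean bound of at most 0.25 of their mean CPM, scaled by TMM factors of their own. The rule for this set was defined after results of these data had been seen. In the first fit these 2604 genes had a median of -0.91, with 43% lower and 2.11% higher, close to the members' median. On their own scale the median of the set was 0.03. The second fit took in 33 of the 45 lysosomal genes, of which 0 fell and 0 rose, against 6.26% and 4.49% of the set; their median was 0.08, with 23 values above 0 and 10 below. At an unadjusted p under 0.05, 8 were higher and 0 lower, against 12% and 13.2% of the set. Without HFD replicate 2 the 8 became 3, and with the 90th percentile background subtracted 13. Shares of the set at that limit are not at hand for these alternatives. The limit of 0.25 was set on the mean over both groups, so the HFD libraries could carry a gene past it. In HFD+MGIG alone the bound exceeded 0.25 of the mean CPM for 8 of the 33: Atp6v0d1 (0.301), Atp6v0d2 (0.707), Atp6v1c1 (0.343), Atp6v1d (0.441), Atp6v1h (0.360), Neu1 (0.255), Gusb (0.424) and Scarb2 (0.440). The other 12 genes (Atp6v0a1, Glb1, Smpd1, Gaa, Naglu, Manba, Sgsh, Galns, Arsb, Mcoln1, Tfeb and Cln3) lay too near the bound to enter it. Of the 11 genes called lower in the first fit, 7 were among these 12, and 5 of the 11 had an HFD+MGIG mean at or below the bound.

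**Figure D1:**
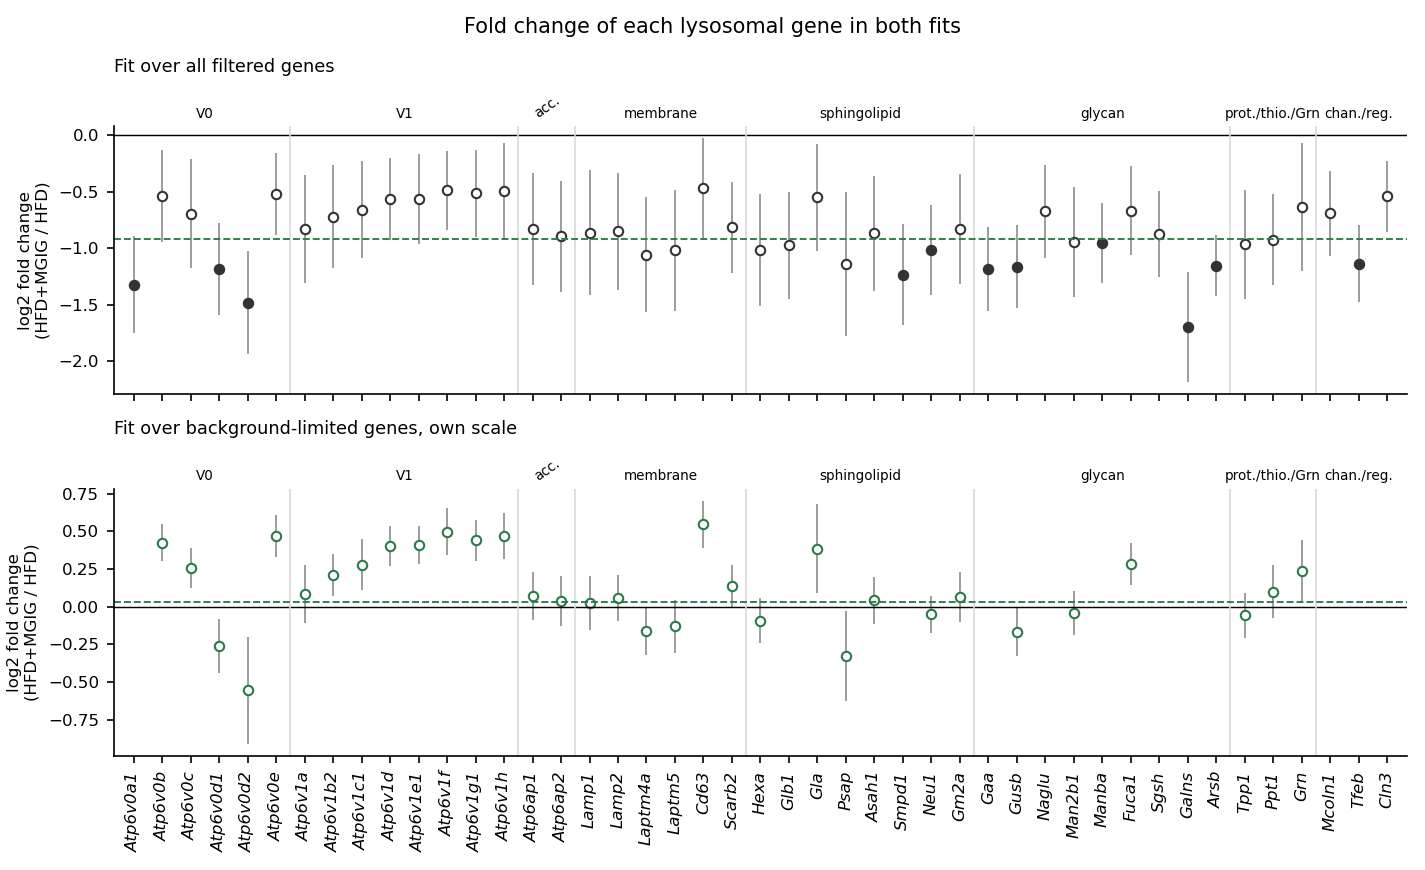
Log2 fold change (HFD+MGIG over HFD) of each lysosomal gene with its standard error, over all filtered genes (top) and over the background-limited genes (bottom), grouped by role. Filled points passed an adjusted p of 0.05 and the dashed line is the median of the 2604 background-limited genes in each fit; all 45 values lie below 0 at the top, and the V1 subunits all lie above 0 at the bottom. The latter count was 7 of 8 with library totals, without HFD replicate 1 or without HFD+MGIG replicate 3, and 5 of 8 with the 90th percentile background subtracted.

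**Figure D2:**
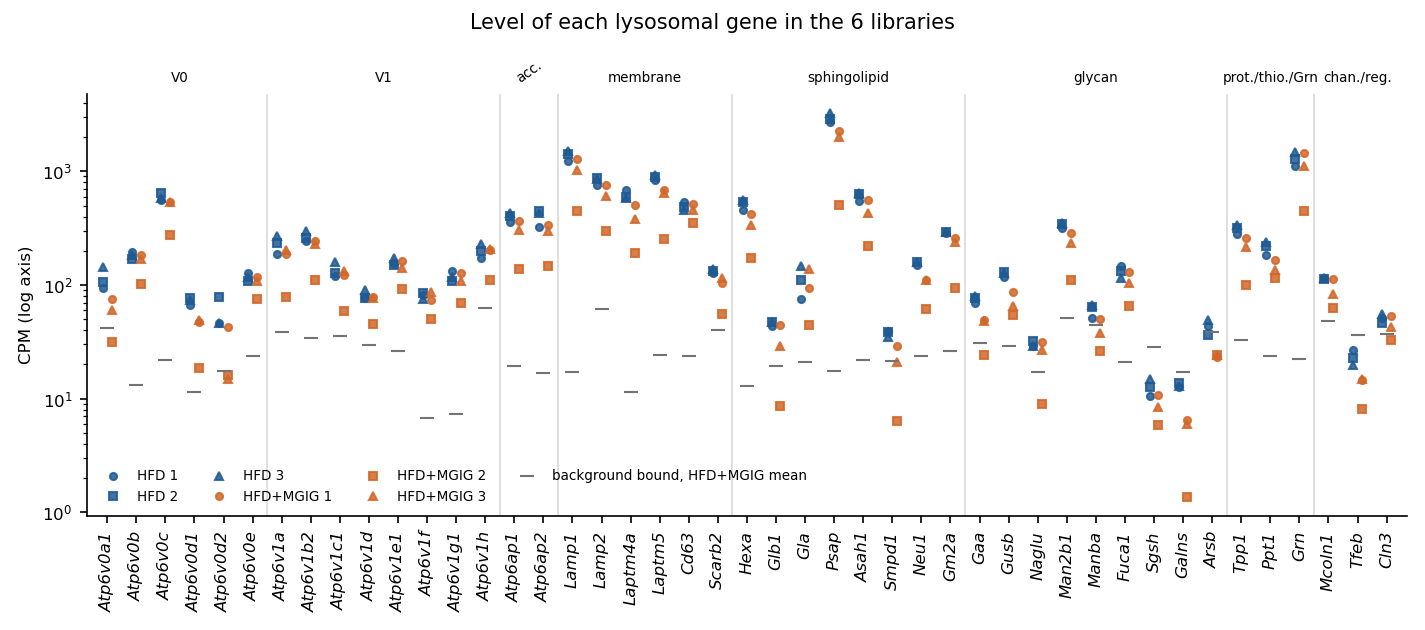
CPM of each lysosomal gene in each library on a log axis, with HFD libraries in blue and HFD+MGIG libraries in orange; the dashes mark the mean background bound in HFD+MGIG. Psap, Lamp1 and Grn lie far above the bound, and replicate 2 of HFD+MGIG (orange squares) is the lowest library for most genes.

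Among the 6 genes of the V0 sector, Atp6v0a1, Atp6v0d1 and Atp6v0d2 fell in the first fit, and 0 of the 5 that entered the second passed. Atp6v0c, which encodes the proteolipid subunit of the membrane rotor, had the highest HFD level of the pump per length, at 176 CPM per kb. It measured 560.4, 639.5 and 587 CPM in the HFD libraries and 532, 275 and 539 CPM in HFD+MGIG. All 3 HFD+MGIG libraries were below all 3 HFD libraries, the second by the widest margin. On the scale of the 2604 genes (CPM computed over that set alone, below called set-scaled CPM) the order turned, with 853, 983 and 902 in HFD and 1045, 1034 and 1193 in HFD+MGIG, a log2 difference of 0.26 (SE 0.13, adjusted p = 0.273 by edgeR).

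The d subunit of V0 joins the membrane rotor to the stalk and has a ubiquitous form, Atp6v0d1 (chr8:105524465-105566047, mm10), and a form enriched in osteoclasts and some macrophages, Atp6v0d2 (chr4:19876841-19922605). Atp6v0d1 measured 66.0, 76.0 and 74.3 CPM in HFD and 47.0, 18.5 and 48.9 in HFD+MGIG, so the groups did not overlap. Its log2 fold change was -1.18 in the first fit (SE 0.41, adjusted p = 0.0249, edgeR) and -0.26 in the second (SE 0.18, adjusted p = 0.392). Without HFD replicate 3, the first of these gave an adjusted p of 0.0569, and with a minimum of 5 CPM in 3 libraries 0.0774. Atp6v0d2 measured 46.1, 77.5 and 46.2 CPM in HFD and 42.7, 16.3 and 14.9 in HFD+MGIG. Here the first HFD+MGIG library was just below the lowest HFD library, and replicates 2 and 3 were under the mean bound of 17.4 CPM. Against its own library's bound, replicate 2 lay below and replicate 3 above. The log2 fold change of Atp6v0d2 was -1.48 (SE 0.46, adjusted p = 0.0150) and, on the scale of the set, -0.56 (SE 0.36, adjusted p = 0.367), with a bound of 0.707 of its mean level in HFD+MGIG, the highest such share of the 33. Its call in the first fit ended without HFD+MGIG replicate 2 (adjusted p = 0.171), without replicate 3 (0.0892) and with the 5 CPM minimum (0.0682).

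Atp6v0a1, the a1 form of the large V0 subunit that contacts the proton path, measured 93.9, 106 and 145 CPM in HFD and 74.9, 31.2 and 60.4 in HFD+MGIG, against a mean bound of 42.0 CPM. The groups did not overlap in CPM but did in set-scaled CPM, and its log2 fold change in the first fit was -1.32 (SE 0.43, adjusted p = 0.0183, edgeR). That call ended without HFD replicate 3 (adjusted p = 0.0723), without HFD+MGIG replicate 3 (0.0664) and with the 5 CPM minimum (0.0501). Atp6v0b, a second proteolipid, and Atp6v0e, the small e subunit, stood on the other side. In set-scaled CPM, Atp6v0b measured 295, 258 and 281 in HFD and 362, 384 and 373 in HFD+MGIG, and Atp6v0e measured 194, 168 and 180.3 in HFD and 229, 284 and 241 in HFD+MGIG. For both, every HFD+MGIG library lay above every HFD library. The log2 differences were 0.42 for Atp6v0b (SE 0.12, adjusted p = 0.0623) and 0.47 for Atp6v0e (SE 0.14, adjusted p = 0.0718), neither past the threshold.

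The 8 genes of the V1 sector, which forms the ATP-hydrolysing head and the stalks, gave values close to each other: 0 passed in either fit, the log2 fold changes ran from -0.83 to -0.49 in the first fit, and all 8 were above 0 in the second, with a median of 0.41. In the second fit 5 of the 8 had an unadjusted p under 0.05 (Atp6v1d, Atp6v1e1, Atp6v1f, Atp6v1g1 and Atp6v1h), against 12% of the set higher at that limit. The count was 2 without HFD replicate 2, and 3 without HFD replicate 1, without HFD+MGIG replicate 3 or with the 90th percentile background subtracted. Shares of the set are not at hand for these alternatives. The sign of all 8 held with DESeq2's size factors, while 7 were above 0 with library totals, without HFD replicate 1 or without HFD+MGIG replicate 3, and 5 with the 90th percentile background subtracted. Over V0 and V1, 11 of the 13 fitted subunits were above 0, with a median of 0.40. Of the 13, 7 had an unadjusted p under 0.05, beside the same 12% of the set (2 without HFD replicate 2, and 5 without HFD replicate 1 or HFD+MGIG replicate 3). Under a stricter limit of 0.1, 6 pump subunits were fitted, and all 6 were above 0 with a median of 0.40; in HFD+MGIG alone none of these had a bound over 0.25 of its mean. The median of the 13 subunits ran from 0.31 to 0.42 over the alternatives, though with the 90th percentile background subtracted 8 of the 13 were above 0.

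Atp6v1g1 and Atp6v1e1 encode the G and E subunits, which pair in the outer stalks that hold the head in place. Atp6v1g1 had the highest V1 level per length, 106 CPM per kb in HFD. In set-scaled CPM it measured 203, 166 and 182 in HFD and 252, 258 and 237 in HFD+MGIG. In CPM of the whole library the same gene measured 133, 108 and 118 in HFD and 128, 68.6 and 107 in HFD+MGIG. The groups were thus apart on the first scale, higher with MGIG, and overlapped on the second. Its log2 difference was 0.44 on the scale of the set (SE 0.13, adjusted p = 0.0757, edgeR) and -0.51 over all filtered genes (SE 0.38, adjusted p = 0.252). Atp6v1e1 was at 236, 232 and 265 set-scaled CPM in HFD and at 317, 343 and 314 in HFD+MGIG, again with no overlap, a log2 difference of 0.41 (SE 0.13, adjusted p = 0.0777).

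Atp6v1f encodes the F subunit of the central rotor stalk. Its set-scaled CPM of 124, 130.1 and 115 in HFD and 143, 187 and 193 in HFD+MGIG did not overlap. The log2 difference was 0.50 (SE 0.15, adjusted p = 0.0772), the largest of the V1 genes, and without HFD+MGIG replicate 1 it was 0.63 with an adjusted p of 0.0459. Atp6v1h, a regulatory subunit, measured 260.4, 305 and 356 set-scaled CPM in HFD and 399, 420.0 and 455 in HFD+MGIG, a log2 difference of 0.47 (SE 0.15, adjusted p = 0.0864). Its long exons (9746 bases in all) gave a mean bound of 62.4 CPM in HFD+MGIG beside a mean level of 173 CPM, and with the 90th percentile background subtracted its log2 difference was 0.07. Atp6v1d, a rotor stalk subunit, was at 116, 119 and 139 set-scaled CPM in HFD and at 155, 170.0 and 169 in HFD+MGIG, without overlap, and its log2 difference of 0.40 (SE 0.13, adjusted p = 0.0991) became -0.29 after that subtraction. At the other end, Atp6v1a, the catalytic A subunit, overlapped between groups, with 287, 357 and 412 set-scaled CPM in HFD and 371, 292 and 449 in HFD+MGIG, a log2 difference of 0.08 (SE 0.19, adjusted p = 0.81). The B2 and C1 subunit genes, Atp6v1b2 and Atp6v1c1, lay between, at 0.21 and 0.28, and their groups also overlapped.

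Over the 33 genes, 10 had set-scaled groups that did not overlap and were higher with MGIG, and 0 were lower, against 16.8% and 17% of the 2604 genes. The 10 were Atp6v0b, Atp6v0c, Atp6v0e, Atp6v1d, Atp6v1e1, Atp6v1f, Atp6v1g1, Atp6v1h, Cd63 and Fuca1. Other tools moved some past the threshold. DESeq2 called Atp6v0b, Atp6v0e, Atp6v1g1 and Cd63 higher (4 of 33, against 7.22% of the set). Limma voom with quality weights called these 4 with Atp6v1e1 and Atp6v1h (6 of 33, against 8.49%). With each library's trends on GC content and transcript length removed, Atp6v1e1, Atp6v1h and Cd63 passed (3 of 33, against 4.22%).

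**Figure D3:**
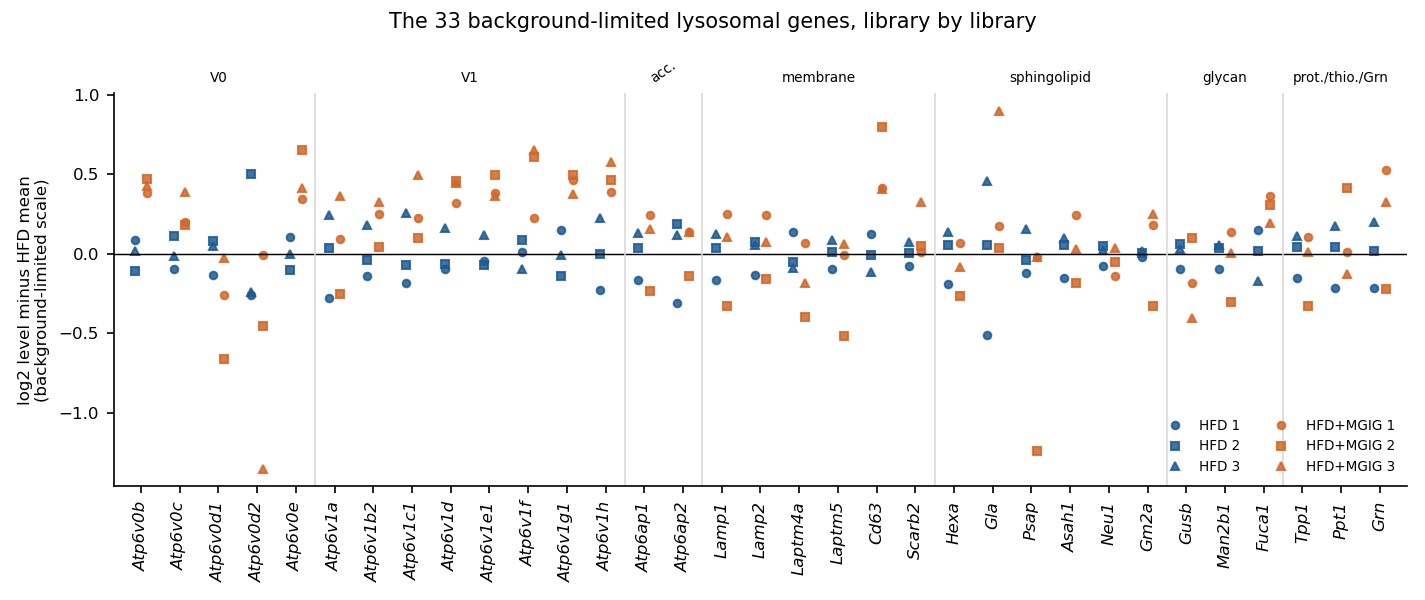
Log2 level of each of the 33 background-limited lysosomal genes in each library, minus the mean of the 3 HFD libraries, in set-scaled CPM; blue symbols are HFD and orange symbols HFD+MGIG libraries. For 10 genes, 8 of them V0 or V1 subunits, all 3 orange symbols lie above all 3 blue ones, and Psap in HFD+MGIG replicate 2 and Atp6v0d2 in replicate 3 lie lowest.

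The accessory subunit genes Atp6ap1 and Atp6ap2, whose products help to assemble the pump, overlapped between groups on both scales. Atp6ap1 measured 355, 404 and 432 CPM in HFD and 366, 137 and 305 in HFD+MGIG, and Atp6ap2 measured 322, 449.8 and 428 CPM in HFD and 339.5, 146 and 301 in HFD+MGIG. For both, the first HFD+MGIG library lay within the HFD range and the other two below it. Their log2 differences on the scale of the set were 0.07 (SE 0.16) and 0.04 (SE 0.17).

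None of the 6 membrane protein genes passed in either fit, and 1 (Cd63, higher in the second) had an unadjusted p under 0.05. Lamp1, the major glycoprotein of the lysosomal membrane, had 517 CPM per kb in HFD, second to Psap among the 45. It measured 1240.3, 1412 and 1498 CPM in HFD and 1282, 448 and 1027 in HFD+MGIG, so that the first HFD+MGIG library fell inside the HFD range. On the scale of the set its log2 difference was 0.03 (SE 0.18, adjusted p = 0.943). Laptm4a, a small transmembrane protein of late endosomes and lysosomes, measured 689, 598 and 582 CPM in HFD and 507, 191 and 378 in HFD+MGIG without overlap, but in set-scaled CPM the groups overlapped, with a log2 difference of -0.16 (SE 0.16, adjusted p = 0.549), the lowest of the 6. Cd63 (chr10:128900989-128912822), a tetraspanin of late endosomes that is also sorted into exosomes, was the highest. It measured 542, 488 and 453 CPM in HFD and 512, 349 and 454 in HFD+MGIG, overlapping, while in set-scaled CPM it measured 825, 751 and 697 in HFD and 1006, 1314 and 1004 in HFD+MGIG. All 3 HFD+MGIG libraries were above all 3 HFD libraries on that scale, and the log2 difference was 0.55 (SE 0.16, adjusted p = 0.0613), the largest of the 33. Laptm5, Lamp2 and Scarb2, the receptor that carries glucocerebrosidase to lysosomes, had values of -0.13, 0.06 and 0.14.

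Of the 8 genes for sphingolipid enzymes and their activators, Smpd1 and Neu1 fell in the first fit, and 0 of the 6 that entered the second passed. Psap (chr10:60277627-60302597) encodes prosaposin, which is cut into the saposins that present sphingolipids to hydrolases. It had the highest level of all 45 genes, 1077 CPM per kb in HFD. Its CPM of 2732, 2863 and 3273 in HFD and 2265, 507 and 2014 in HFD+MGIG did not overlap. On the scale of the set it measured 4161, 4402 and 5034 in HFD and 4448, 1908 and 4456 in HFD+MGIG, so that replicate 2 of HFD+MGIG lay far below the other 5 libraries. The log2 difference on that scale was -0.33 (SE 0.30, adjusted p = 0.527), and over the alternatives it ran from -0.51 to 0.08.

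Gla, the galactosidase that removes terminal galactose from globosides, varied widely within each group. It measured 74.8, 109.6 and 145 CPM in HFD and 93.3, 44.3 and 137 in HFD+MGIG, and its log2 difference of 0.39 on the scale of the set had an SE of 0.30 (adjusted p = 0.455). Smpd1, acid sphingomyelinase, measured 38.9, 38.8 and 35.1 CPM in HFD and 28.9, 6.32 and 20.8 in HFD+MGIG. Its groups did not overlap and its log2 fold change in the first fit was -1.23 (SE 0.45, adjusted p = 0.0308, edgeR), but its HFD+MGIG mean of 18.7 CPM was under the mean bound of 21.4 CPM. Against its own library's bound only replicate 2 of HFD+MGIG was below, and in set-scaled CPM the groups of Smpd1 overlapped. The call on Smpd1 ended with library totals (adjusted p = 0.0629), without HFD+MGIG replicate 3 (0.0849) and with the 5 CPM minimum (0.116). Neu1, the lysosomal sialidase, measured 148, 160.6 and 158 CPM in HFD and 109.9, 61.0 and 110.5 in HFD+MGIG, also apart. Its first-fit log2 fold change was -1.01 (SE 0.40, adjusted p = 0.0443) and its second-fit value was -0.05 (SE 0.13, adjusted p = 0.82). The call on Neu1 ended when any of the HFD libraries was left out (adjusted p of 0.0696, 0.113 and 0.11 for replicates 1 to 3), without HFD+MGIG replicate 3 (0.103), with library totals (0.0626) and with the 5 CPM minimum (0.105). Hexa and Gm2a, the enzyme subunit and the activator that act on GM2 ganglioside, and Asah1, acid ceramidase, had second-fit values of -0.09, 0.06 and 0.04. Glb1, beta-galactosidase, did not enter the second fit and had a log2 fold change of -0.97 in the first (SE 0.47, adjusted p = 0.0899); its exons overlap those of Tmppe on the same strand, so reads could be shared.

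The 9 glycan hydrolase genes held 5 of the 11 first-fit calls (Gaa, Gusb, Manba, Galns and Arsb, all lower), and 0 of the 3 that entered the second fit passed. Gusb, the beta-glucuronidase of glycosaminoglycan breakdown, measured 118, 130.5 and 128 CPM in HFD and 86.0, 54.6 and 65.5 in HFD+MGIG without overlap. Its log2 fold change was -1.16 (SE 0.37, adjusted p = 0.0162, edgeR) in the first fit and -0.17 (SE 0.16, adjusted p = 0.536) in the second, and the first-fit call ended without HFD replicate 2 (adjusted p = 0.0566), without HFD replicate 3 (0.0559) and without HFD+MGIG replicate 3 (0.088). Man2b1, lysosomal alpha-mannosidase, had the highest level per length of the group, 41.8 CPM per kb in HFD. It measured 316, 343 and 348 CPM in HFD and 288, 111 and 233 in HFD+MGIG, all 3 lower, while its second-fit value was -0.04 (SE 0.15, adjusted p = 0.885). Fuca1, the alpha-fucosidase, differed in that its set-scaled CPM of 222, 202 and 177 in HFD and 257, 247 and 228 in HFD+MGIG did not overlap and were higher with MGIG; the log2 difference was 0.28 (SE 0.14, adjusted p = 0.249).

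Arsb and Gaa were lower in the first fit and in each of its 13 alternatives, the only members of which this held. Arsb, arylsulfatase B, measured 43.3, 36.4 and 48.7 CPM in HFD and 23.1, 24.4 and 24.3 in HFD+MGIG, a log2 fold change of -1.15 (SE 0.27, adjusted p = 0.00301, edgeR). The 3 HFD+MGIG libraries were close to each other, and their mean of 23.9 CPM was under the mean bound of 38.7 CPM. Gaa, acid alpha-glucosidase, which degrades glycogen, measured 69.1, 77.4 and 80.7 CPM in HFD and 48.9, 23.9 and 48.1 in HFD+MGIG, a log2 fold change of -1.18 (SE 0.37, adjusted p = 0.0166), with a mean bound of 30.6 CPM in HFD+MGIG. For both genes every HFD+MGIG library was below every HFD library in CPM. None of the 13 alternatives used the scale of the set, and in set-scaled CPM the groups of both overlapped. There Arsb measured 66.0, 56.0 and 74.9 in HFD and 45.4, 91.8 and 53.7 in HFD+MGIG. Gaa measured 105, 119 and 124 in HFD and 96.1, 90.1 and 106 in HFD+MGIG. Galns, a sulfatase of keratan sulfate, had the most negative first-fit value of all 45 at -1.69 (SE 0.49, adjusted p = 0.00997). It measured 12.5, 13.6 and 12.9 CPM in HFD and 6.51, 1.35 and 5.91 in HFD+MGIG. Its groups were apart, also in set-scaled CPM, the HFD+MGIG mean was under the mean bound, and replicate 2 held 3 counts, the lowest of any member. With the 5 CPM minimum the adjusted p of Galns was 0.0507. Manba, beta-mannosidase, had a log2 fold change of -0.95 (SE 0.35, adjusted p = 0.0347), with an HFD+MGIG mean of 38.0 CPM under a mean bound of 44.7 CPM. Against its own library's bound only replicate 2 was below, and in set-scaled CPM the groups of Manba overlapped. Its adjusted p was 0.0887 without HFD replicate 2, 0.0989 without HFD replicate 3, 0.123 without HFD+MGIG replicate 3, 0.0623 with library totals and 0.113 with the 5 CPM minimum. Sgsh and Naglu, both of heparan sulfate breakdown, gave -0.87 and -0.67 and did not pass.

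None of Tpp1, a tripeptidyl peptidase, Ppt1, which removes palmitate from proteins, and Grn passed in either fit. Grn encodes progranulin, a secreted and lysosomal protein that is cut into granulins, and had 372 CPM per kb in HFD, next after Psap and Lamp1 among the 45. It measured 1113, 1296 and 1467 CPM in HFD and 1443, 449 and 1113 in HFD+MGIG, overlapping, with a second-fit log2 difference of 0.24 (SE 0.21, adjusted p = 0.514). Tpp1 measured 282, 319 and 335 CPM in HFD and 261, 101 and 218 in HFD+MGIG without overlap, while its second-fit value was -0.06 (SE 0.15). Ppt1 gave 0.10 (SE 0.18) there.

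Ratios of 2 genes within a library do not depend on its scaling. For 3 pairs of abundant or related members, taken after their counts had been seen, such ratios were compared per exon length with an exact two-sided permutation test, for which 3 against 3 libraries cannot give a p under 0.1. The ratio of Psap to Grn, whose products bind each other, was 3.11, 2.80 and 2.82 in HFD and 1.99, 1.43 and 2.29 in HFD+MGIG. The 2 groups were apart: the means were 2.91 ± 0.17 and 1.90 ± 0.44 (SD, n = 3 each), a log2 difference of -0.64 (exact permutation p = 0.1, 0.3 after adjustment over the 3 pairs). The ratio of Atp6v0d2 to Atp6v0d1 was 0.461, 0.673 and 0.411 in HFD and 0.599, 0.580 and 0.201 in HFD+MGIG, and overlapped (exact permutation p = 0.8). Lamp1 to Lamp2 was nearly constant at 5.85, 5.83 and 6.27 in HFD and 6.02, 5.33 and 6.11 in HFD+MGIG (exact permutation p = 0.8).

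**Figure D4:**
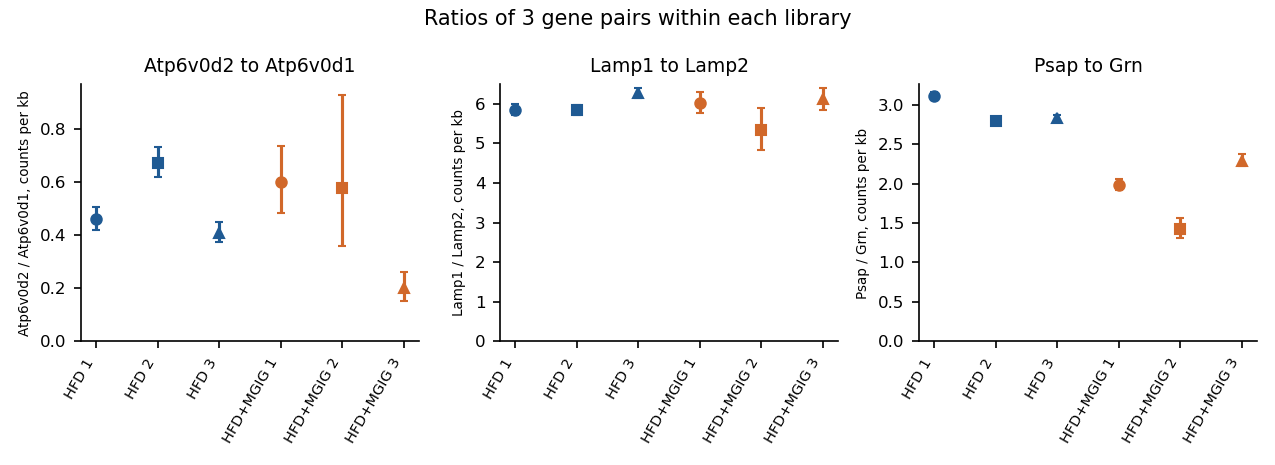
Ratio of counts per kb of exon for 3 gene pairs in each library, with exact 95% binomial (Clopper-Pearson) intervals that cover counting error only. The Psap to Grn ratio lies between 2.80 and 3.11 in the HFD libraries and between 1.43 and 2.29 in HFD+MGIG, while the groups overlap for the other two pairs.

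The genes of a channel, a transcription factor and a membrane protein, Mcoln1, Tfeb and Cln3, did not enter the second fit. Mcoln1, the lysosomal calcium channel TRPML1, measured 114, 113 and 115 CPM in HFD and 112, 62.8 and 84.0 in HFD+MGIG, not overlapping but close in the first library, with a log2 fold change of -0.69 (SE 0.37, adjusted p = 0.123, edgeR). Cln3, a membrane protein lost in a form of Batten disease, measured 50.9, 46.3 and 55.4 CPM in HFD and 52.8, 32.5 and 42.4 in HFD+MGIG, overlapping, with -0.54 (SE 0.32, adjusted p = 0.151). Tfeb (chr17:47737030-47792419), which switches lysosomal genes on, fell: it measured 26.9, 22.9 and 19.8 CPM in HFD and 14.7, 8.13 and 14.9 in HFD+MGIG, a log2 fold change of -1.14 (SE 0.34, adjusted p = 0.0122). The groups did not overlap, but the HFD+MGIG mean of 12.6 CPM was under the mean bound of 36.3 CPM, and with the 5 CPM minimum the adjusted p was 0.0622. In set-scaled CPM the groups of Tfeb overlapped (40.9, 35.1 and 30.4 against 28.9, 30.6 and 32.9). Those of Mcoln1 (174, 173 and 178 against 220, 236 and 186) and Cln3 (77.6, 71.1 and 85.2 against 104, 122 and 93.8) did not, and were higher with MGIG. The mean bound in HFD+MGIG was 48.4 CPM for Mcoln1, beside a mean of 86.2, and 37.0 for Cln3, beside 42.6. Members with the E-box in the promoter window had a second-fit median of 0.24 (6 genes) and those without it 0.06 (21 genes), a description over few genes with no test.

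The share of the members' counts that each role held does not depend on the scaling either. V0 and V1 genes together took 16.1%, 15.9% and 15.9% of the members' counts in HFD and 16.6%, 21.7% and 18.6% in HFD+MGIG. Every HFD+MGIG library was above every HFD library, replicate 1 by the least. The background bound summed over these genes was 0.328% to 1.01% of their summed CPM in HFD and 13.7%, 48.1% and 12.5% in HFD+MGIG. With the median background removed the HFD+MGIG shares were 16.3%, 20.8% and 18.3%. With the summed bounds taken off instead, HFD+MGIG replicate 1 fell below all HFD libraries, while replicates 2 and 3 stayed above them. The order of the groups thus depends on how much background is removed. Hydrolases, activators and progranulin took 47.9%, 48.4% and 49.9% in HFD and 47.7%, 40.3% and 46.7% in HFD+MGIG. Within them, the sphingolipid genes, Psap included, took 30.9%, 30.8% and 32.0% in HFD and 28.5%, 21.4% and 29.0% in HFD+MGIG. The glycan hydrolase shares overlapped, and those of Tpp1, Ppt1 and Grn together went from 11.3%, 12.1% and 12.7% to 14.1%, 12.8% and 12.8%. Psap alone measured 2732, 2863 and 3273 CPM in HFD and 2265, 507 and 2014 in HFD+MGIG. It is part of the total behind every share, and shares without it were not computed. In the second fit the 20 hydrolase, activator and progranulin genes, 12 of them fitted, had a median of 0.00 against 0.40 for the pump. With the 90th percentile background subtracted, the medians were 0.27 and 0.33, with 9 of 12 and 8 of 13 above 0. With GC and length trends removed, they were 0.18 and 0.34, with 8 of 12 and 11 of 13 above 0. Several lists of other lysosomal genes, given below, also had second-fit medians above 0, so such values were not particular to the pump.

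Counts differed between lists of other lysosomal genes, from 0 of 12 cathepsins to 8 of 15 delivery genes lower in the first fit. The difference between lists was not tested. In that fit 17.8% of all genes were lower and 42.9% higher, and 43% of the 2604 background-limited genes were lower. In the second fit 6.26% of the 2604 were lower and 4.49% higher. Among pump subunit forms outside the 45, 2 of 4 fitted genes were lower in the first fit: Tcirg1, the a3 form of the osteoclast and lysosomal pump (log2 fold change -1.13, SE 0.36, adjusted p = 0.0173, edgeR), and Atp6v0a2 (-1.58, SE 0.35, adjusted p = 0.00187), whose HFD+MGIG mean of 25.0 CPM was under its bound of 43.1 CPM. In the second fit Tcirg1 stood at -0.17 (SE 0.13, adjusted p = 0.469). Of 22 other hydrolases 7 were lower and 0 higher in the first fit, and 1 of 13 was lower in the second: Ids, the sulfatase that opens heparan and dermatan sulfate breakdown, at -0.86 (SE 0.14, adjusted p = 0.0109). Of 12 cathepsins 0 passed in the first fit (0 at an unadjusted p under 0.05), and 1 of 10, the protease gene Ctsl, was higher in the second at 0.84 (SE 0.16, adjusted p = 0.0144). Of 24 other membrane proteins and transporters 6 were lower and 1 higher in the first fit, the last being Lamp3 at 5.90 CPM in HFD+MGIG under a bound of 21.5 CPM, and 0 of 9 passed in the second. Of 15 genes for delivery to lysosomes 8 were lower in the first fit and 0 of 6 passed in the second. Among 16 genes of the TFE factors, Ragulator and Rag GTPases, 3 were lower and 2 higher, the higher ones (Tfec and Rragd) with HFD+MGIG means under their bounds, and 0 of 7 passed in the second fit, where all 7 were above 0. Second-fit medians were 0.37 for these 7, 0.29 for the cathepsins (10 of 10 above 0) and 0.36 for the other membrane proteins (6 of 9). They were 0.15 for the other hydrolases (8 of 13 above 0) and 0.15 for the delivery genes (3 of 6), beside 0.40 for the V0 and V1 subunits.

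Marker genes of other cells moved beside these results. The shares called were again 17.8% lower and 42.9% higher over all genes in the first fit, and 6.26% and 4.49% in the second. Of 15 macrophage markers 0 passed in either edgeR fit (2 were lower in the first and 6 higher in the second at an unadjusted p under 0.05), with medians of -0.62 and 0.34, and their summed CPM was 16704 to 18722 in HFD and 7273 to 18345 in HFD+MGIG. All 10 endothelial markers were lower in the first fit and 6 of 7 in the second, with sums of 2373 to 2764 CPM in HFD and 468 to 879 in HFD+MGIG. Of 10 adipocyte markers 9 were lower in the first fit and 1 of 5 in the second (sums of 3957 to 6388 CPM in HFD, and at most 2488 in HFD+MGIG), and of 10 fibroblast markers 7 and 3 of 7 (2679 to 4141 and 1350.2 to 2031 CPM). Over the other 4 lists the calls of the first fit went both ways. The second fit took in only 4 neutrophil, 2 dendritic cell and 4 mast cell markers, of which 0 passed (0 at an unadjusted p under 0.05). It took in 0 T and B cell markers, so these were not tested there. In the first fit, 1 of 6 neutrophil markers fitted was higher (Cxcr2) and 0 lower, with sums of 139.6 to 214 CPM in HFD and 137 to 249 in HFD+MGIG. Of 9 T and B cell markers 2 were higher (Cd3g and Ms4a1) and 1 lower (Cd2), with a median of 0.77 and sums of 42.9 to 76.8 and 57.8 to 187 CPM. Of 8 dendritic cell markers 1 was higher (Xcr1) and 3 lower (Ccr7, Fscn1 and Batf3), with sums of 399 to 523 and 308 to 345 CPM, and of 6 mast cell markers 1 was higher (Ms4a2) and 1 lower (Kit), with 146 to 288 and 93.6 to 239 CPM. The HFD+MGIG means of Cd3g, Ms4a1, Xcr1 and Ms4a2 were under their bounds. No marker of these 8 lists was at 0 in all libraries of a group. The part of these cells in the lysosomal values was not tested.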

How the data were processed

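The values are estimated counts per gene, deposited by the authors as 1 table of 57180 mouse genes by 6 libraries. Per the labels' protocols the libraries were made with a SMART-Seq v4 kit from 10 ng of total RNA. The submitters' processing notes name fastp, HISAT2, StringTie and mm10; no source used here gives versions, the counting program or its use of strand. Values were rounded, 0 value columns were left unused, and CPM were scaled by library totals. GENCODE M21 gave symbols and exon lengths for 51884 IDs; 5296 were tested without a symbol.

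Both fits used edgeR 4.0.16 in R 4.3.3 (quasi-likelihood, robust, TMM, group as the only term), with Benjamini-Hochberg adjustment over all genes fitted and a threshold of 0.05. The first took genes passing filterByExpr. The second took protein-coding genes with 2 or more exon blocks, outside 1596 silent-family genes, whose mean bound did not exceed 0.25 of mean CPM. Standard errors came from the F statistic. Alternatives used DESeq2 1.42.0 and its size factors, limma 3.58.1 (voom with quality weights), library totals, other filters, the replicate block, background subtraction, removal of GC and length trends, and each library left out. The edgeR fit over all filtered genes was tested on simulated counts. These were drawn from HFD proportions and dispersions, so they lacked the higher background of HFD+MGIG. The second fit and the alternatives were not tested in this way.

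The members, roles and lists, and the rule for the gene set of the second fit, were chosen with earlier results of these data known. Values per library are given, for each role, for the member with the highest level per length and those with the most negative and most positive log2 difference, and for Atp6v0d1, Atp6v0d2 and Tfeb; other members were picked after their values were seen. Exons of Hexa, Lamp1, Ppt1, Cln3, Sgsh, Atp6v1e1, Atp6v1h, Grn, Atp6v0b and Arsb overlap genes on the opposite strand, so reads could be shared.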

Additional observations from a re-analysis of the deposited data

How the results depend on the processing

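The count of members lower over all filtered genes was 11 and moved most with the tool, the filter and the library left out. It was 17 with DESeq2, 31 with limma voom, 3 with a minimum of 5 CPM in 3 libraries, and 5 to 23 with 1 library left out: 6 without HFD replicate 3, and 19, 23 and 5 without HFD+MGIG replicates 1 to 3. It was 12 with DESeq2's size factors, 8 with library totals and 13 without a filter; the median of all genes was then 0.54, 0.74 and 2.62, against 0.38. The fitted value of all 45 members was below 0 in each of the 13 alternatives, and 0 members were higher. Among the 33 background-limited members, 0 were lower in every alternative; 4 were higher with DESeq2, 6 with limma voom, 3 with GC and length trends removed, 0 to 1 with 1 library left out (Atp6v1f, without HFD+MGIG replicate 1), and 0 in the rest, including subtraction of the 90th percentile background, an alternative added after the data were seen. Under that subtraction 0 of all 2604 genes passed in either direction, so its count of 0 says nothing particular about the members. Without HFD+MGIG replicate 2, the shallowest library, the V0 and V1 median was 0.37. With the replicate number as a block, 13 of 45 were lower (with Glb1, Naglu and Sgsh, without Neu1) and 0 of 33 passed; deviations of same-numbered libraries correlated at -0.14, 0.11 and 0.20 over 2604 genes, so the numbers are not taken to pair the samples. Depth limits the low genes: the smallest member count was 178 to 207 in HFD libraries and 3 to 29 in HFD+MGIG.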
